A study of Homo sapiens with 18 samples.

Results

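Secreted mediators of inflammation were followed in MDA-MB-231, a long-established triple-negative breast cancer line, through 10 genes chosen by name from the 62703 genes of the deposited tables. They comprised the neutrophil-attracting chemokines CXCL1, CXCL2, CXCL3 and CXCL8, the mononuclear cell and lymphocyte chemokines CCL2, CCL5 and CCL20, the interleukin-1 cytokines IL1A and IL1B, and CSF2, which encodes the growth factor GM-CSF. The 10 distinct libraries of polyadenylated RNA fell into 5 groups of 2. In the knockdown experiment, cells received lentivirus for 24 h and then 2 μg/ml puromycin for 72 h, and this held for the control hairpin (Control shRNA), the hairpin against EZH2 (shEZH2) and the hairpin against E2F1 (shE2F1) alike. In the drug experiment, cells without virus or puromycin were kept for 72 h in the solvent DMSO or in 1 μM GSK126, which blocks the methyltransferase of EZH2. EZH2 is the enzyme of a Polycomb repressive complex that methylates histone H3, and E2F1 is a transcription factor that drives entry into S phase. All groups come from 1 cell line, and no source used here says whether the 2 libraries of a group came from separate cultures, so that p-values measure the spread between these libraries, which may be technical.

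Chemokines are small secreted proteins that draw leukocytes along a gradient by way of receptors on those cells. In epithelial and tumour cells, most genes of this set are switched on by interleukin-1 or tumour necrosis factor through NF-kB, often together with AP-1, and their messengers are short-lived because of AU-rich elements in the 3′ untranslated region. IL1A and IL1B act upstream of this response as well as being part of it, and triple-negative lines such as MDA-MB-231 are known for secreting CXCL8 and GM-CSF without added stimulus.

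CXCL1, CXCL2, CXCL3 and CXCL8 lie in a cluster of chromosome 4 (GRCh38) that spans 359 kb, from 73740519 to 74099196. IL1A (112773925 to 112784493, minus strand) and IL1B (112829751 to 112836816, minus strand) are neighbours on chromosome 2, which also holds CCL20 (227805739 to 227817564, plus strand). CCL2 (34255274 to 34257208, plus strand) and CCL5 (35871491 to 35880793, minus strand) lie on chromosome 17, and CSF2 (132073789 to 132076170, plus strand) on chromosome 5. The promoter windows of the 4 CXC genes are shown because these genes form the largest family among the 10 and hold the same NF-kB motif. Each line gives the 150 bases before the RefSeq start site (GRCh38.p14), 5′ to 3′ on the strand of the gene, and capitals mark matches to the short kB motif GGANTTTCC or to the AP-1 motif TGANTCA.
CXCL1 (chr4:73869243-73869392, plus strand): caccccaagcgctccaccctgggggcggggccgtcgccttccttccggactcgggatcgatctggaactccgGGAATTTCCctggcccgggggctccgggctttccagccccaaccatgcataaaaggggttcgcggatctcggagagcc
CXCL2 (chr4:74099196-74099345, minus strand): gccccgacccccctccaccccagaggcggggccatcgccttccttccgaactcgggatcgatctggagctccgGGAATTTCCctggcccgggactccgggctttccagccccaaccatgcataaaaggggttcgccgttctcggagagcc
CXCL3 (chr4:74038690-74038839, minus strand): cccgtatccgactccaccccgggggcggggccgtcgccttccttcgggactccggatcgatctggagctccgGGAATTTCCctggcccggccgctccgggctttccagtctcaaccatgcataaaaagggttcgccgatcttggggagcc
CXCL8 (chr4:73740419-73740568, plus strand): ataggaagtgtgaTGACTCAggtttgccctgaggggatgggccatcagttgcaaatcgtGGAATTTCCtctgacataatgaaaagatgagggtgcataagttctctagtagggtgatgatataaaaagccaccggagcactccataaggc

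The match to GGANTTTCC began 78 bases before the start site in CXCL1 and CXCL3, 77 bases before it in CXCL2 and 91 bases before it in CXCL8. Searched on both strands from 250 bases before to 50 after the start, this motif occurred in 1.64% of 35116 RefSeq promoter entries. The windows of CXCL1 and CXCL2 were identical at 88.7% of aligned positions, those of CXCL1 and CXCL3 at 88.1%, and those of CXCL1 and CXCL8 at 45%. CXCL8 alone of the 4 also held TGANTCA, 137 bases before the start, a motif found in 7.71% of all entries, and a TATAAA box 31 bases before it, found in 11.5%. The 10-base kB consensus, which overlaps the shorter motif, matched in CXCL1, CXCL2, CXCL3 and CCL20, against 5.91% of all entries. IL1A, which has 2 entries, held TGANTCA in both, while IL1B and CSF2 held none of these motifs. The E2F motif TTTNGCGC was found in none of the 8 genes with an entry and in 1.79% of all entries. CCL2 and CCL5 had no entry. A match is a description of the letters and was not tested as a binding site.

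**Figure D1:**
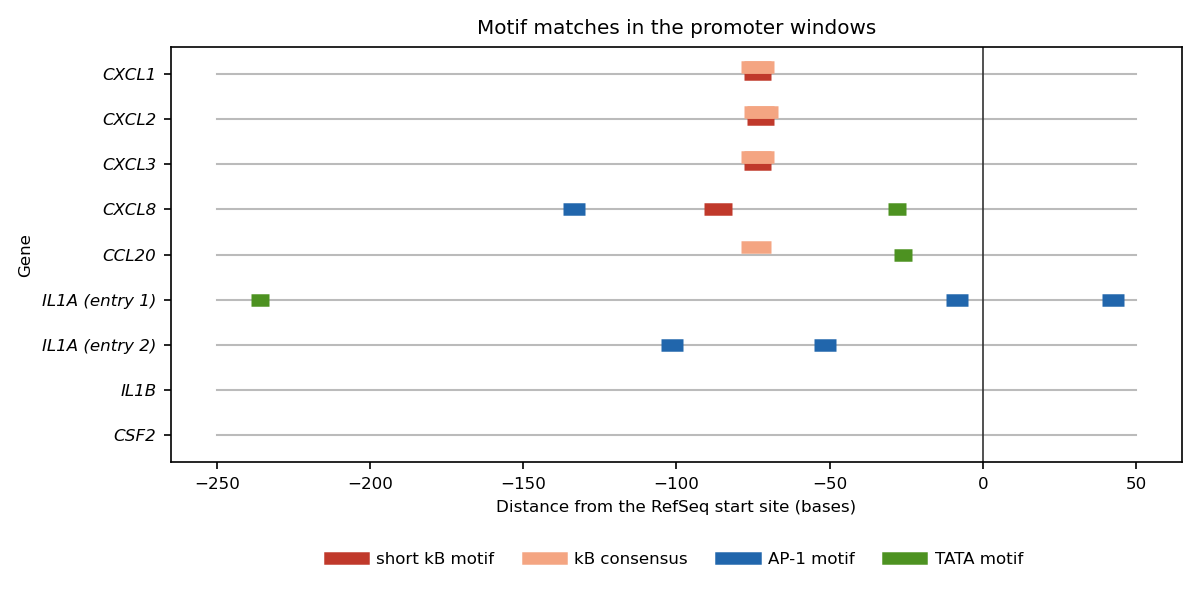
Motif matches along the promoter windows of the 8 genes with a RefSeq entry (IL1A has 2 entries), plotted by distance in bases from the start site at 0. Coloured bars are matches on either strand, and the short kB motif lies within 100 bases of the start in CXCL1, CXCL2, CXCL3 and CXCL8 while IL1B and CSF2 show no match.

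In the 3′ untranslated regions of the canonical transcripts, the AU-rich pentamer ATTTA occurred 10 times in CXCL2, 9 times in CXCL8, 8 times in CSF2, 7 times in CXCL3 and 6 times each in CXCL1 and IL1B. It occurred 5 times in IL1A, 3 times in CCL20, 1 time in CCL2 and 0 times in CCL5. Thus 7 of the 10 genes held 5 or more copies, against 29.2% of 19207 genes, whose median was 2.

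The hairpins lowered their targets. EZH2 stood at 153 and 181 CPM in Control shRNA and at 52.6 and 44.8 CPM in shEZH2, a log2 change of -1.79 ± 0.12 (SE, edgeR adjusted p = 2.40e-06). E2F1 stood at 143 and 138 CPM in Control shRNA and at 26.0 and 22.5 CPM in shE2F1, a change of -2.54 ± 0.24 (SE, edgeR adjusted p = 1.52e-05), and at 62.4 and 32.3 CPM in shEZH2. CPM are counts per 1000000 after TMM scaling, and totals ran from 13198932 to 20055550 expected counts per library, so that 3 counts, the most that a count of 0 allows, correspond to 0.144 to 0.226 CPM by counting error only. Of 6 genes listed as marks of MDA-MB-231, all 6 reached 1 CPM, although SPARC stayed between 0.144 and 3.51 CPM, and their sum was 8224 to 8848 CPM in Control shRNA, 3955 to 4153 CPM in shEZH2 and 5746 to 5748 CPM in shE2F1. Of 5 genes listed as absent or low, PGR was at 0 in all 10 libraries and ESR1 did not exceed 0.216 CPM, but CDH1 reached 9.82 CPM, GATA3 stood at 8.69 to 16.4 CPM and ERBB2 at 46.1 to 90.2 CPM. The part of these shifts in the results below was not tested.

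Abundance of the 10 genes was low apart from CXCL8, CSF2 and, in the drug experiment, CXCL2. Compared per length in TPM (transcripts per 1000000), CSF2 and CXCL8 ranked first in Control shRNA, at 6.26 ± 3.30 and 6.19 ± 3.11 TPM (SD, n = 2), and their ranges overlapped. CXCL2 followed at 3.02 ± 0.03 TPM (SD, n = 2), and the neighbours IL1B, CXCL3, CCL5 and CXCL1, between 1.43 and 0.79 TPM on average, overlapped one another in turn. In shEZH2, CSF2 was first at 19.4 ± 0.47 TPM (SD, n = 2) and CXCL8 second at 10.6 ± 0.64 TPM (SD, n = 2), with no overlap. In shE2F1, DMSO and GSK126, CXCL8 was first, at 56.5 ± 19.2, 55.7 ± 13.9 and 100.3 ± 30.1 TPM (SD, n = 2), and did not overlap CSF2, the second in each. CCL2, the main monocyte chemokine, had 3 counts over all 10 libraries, all in the drug experiment, and CCL20, a ligand of CCR6, had 36. Neither passed the filter on low counts in any comparison, so that 8 of the 10 genes were tested among the hairpins and 7 in the drug experiment, where CCL5 did not pass. Among the hairpins CCL5 passed through its shE2F1 libraries. CXCL1 had 9 and 11 counts in Control shRNA, CXCL3 had 12 and 9, and IL1A had 3 and 9. These genes passed with the help of shEZH2 or shE2F1 libraries where they were higher. Counts and medians over the 8 genes are therefore descriptions of those that passed, in part through a rise. Counts shared between near-identical genes were few, since the posterior SD of RSEM did not exceed 0.70 reads for any of the 10 genes.

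**Figure D2:**
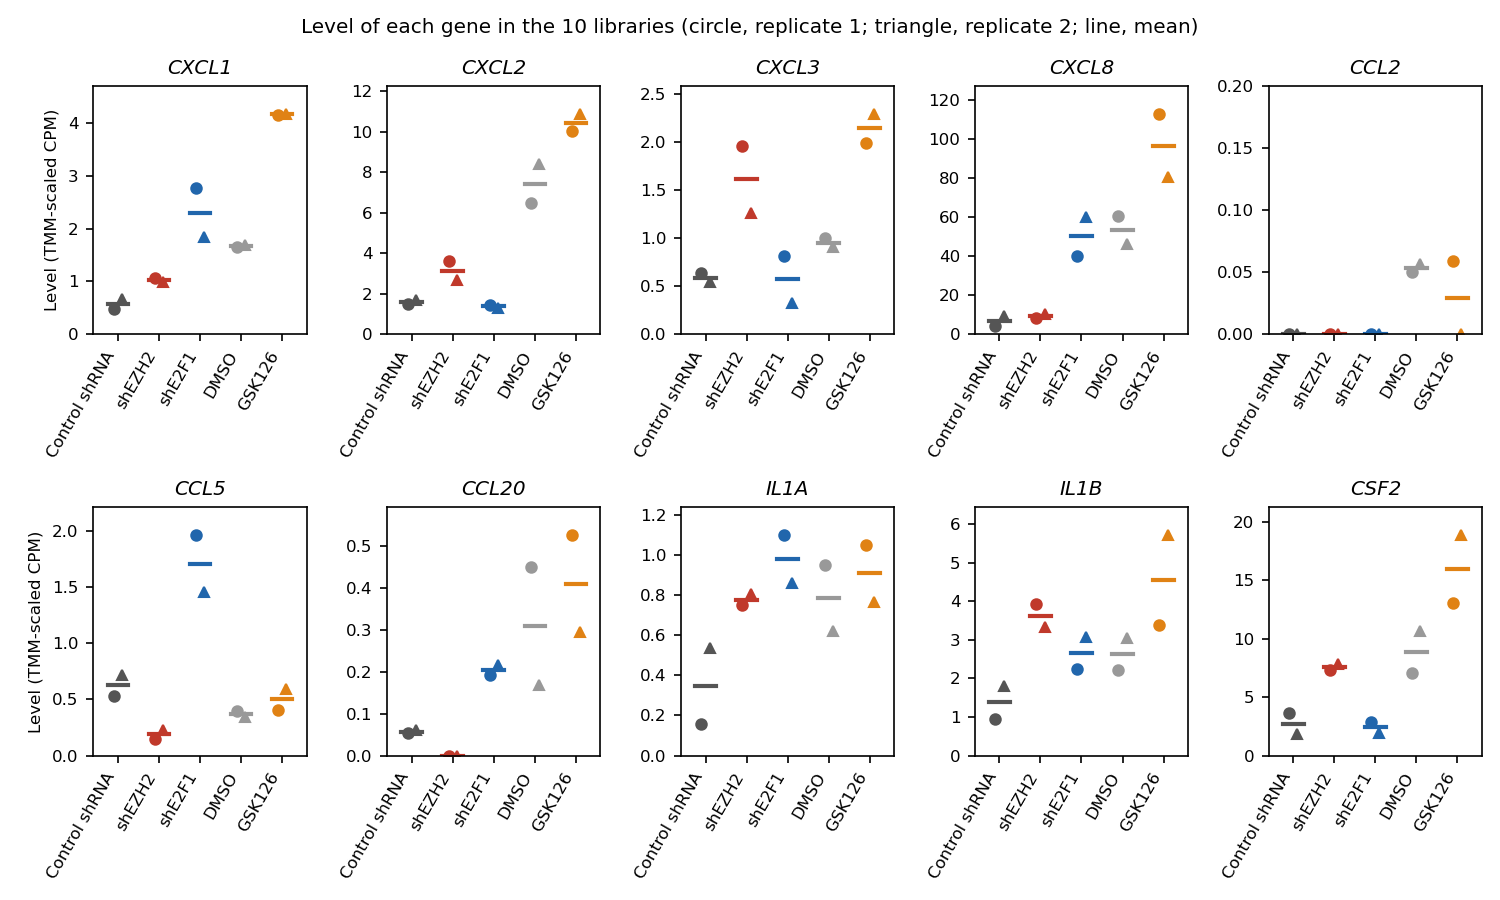
Level of each of the 10 genes in TMM-scaled CPM (linear axes from 0, a separate scale for each gene) in the 10 libraries, with circles for replicate 1, triangles for replicate 2 and a line at the mean of the 2. CXCL8 and CXCL1 stand highest among the hairpin groups in shE2F1, CSF2 in shEZH2, and CXCL1 reaches 4.16 and 4.18 CPM in GSK126.

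The first comparison asked which of these genes differed when EZH2 was depleted. IL1B and CSF2 rose in shEZH2, by 2.62-fold and 2.72-fold. A gene was called when its adjusted p was under 0.01 and it changed by more than 2-fold, and 2 of the 8 genes tested were called, both higher, against 18.2% of the 15373 genes tested. In bulk RNA, fewer cells that express a gene and less RNA per cell cannot be told apart. Of the 8 genes, 7 had a positive change, against 48.9% of all genes tested, and their median change was 1.07 against -0.02 over all genes.

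IL1B, the inducible interleukin-1 that is processed by caspase-1, was at 0.953 and 1.80 CPM in Control shRNA and at 3.91 and 3.34 CPM in shEZH2. Both shEZH2 libraries lay above both control libraries, and the change was 1.39 ± 0.36 (SE, edgeR adjusted p = 0.0075). CSF2, whose product supports granulocytes and macrophages, was at 3.65 and 1.80 CPM in Control shRNA and at 7.30 and 7.83 CPM in shEZH2. The 2 controls differed from each other more than the 2 shEZH2 libraries did, the groups did not overlap, and the change was 1.45 ± 0.33 (SE, edgeR adjusted p = 0.00334). The call of IL1B was lost without Control shRNA replicate 1 (0.99, edgeR adjusted p = 0.0542), without shEZH2 replicate 1 (1.27, adjusted p = 0.0316) or without shEZH2 replicate 2 (1.52, adjusted p = 0.0169), and under DESeq2 (1.41, adjusted p = 0.0123). The call of CSF2 was lost without Control shRNA replicate 2 (1.04, edgeR adjusted p = 0.0148) or without shEZH2 replicate 2 (1.41, adjusted p = 0.0161), and its change was 2.05 without Control shRNA replicate 1.

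Among the CXC chemokines, no gene was called in shEZH2. CXCL2 was at 1.48 and 1.68 CPM in Control shRNA and at 3.61 and 2.65 CPM in shEZH2, without overlap, a change of 0.96 ± 0.33 (SE, edgeR adjusted p = 0.0283). CXCL3 was at 0.635 and 0.540 CPM in Control shRNA and at 1.96 and 1.27 CPM in shEZH2, also without overlap, a change of 1.41 ± 0.51 (SE, edgeR adjusted p = 0.0362). For these 2 ligands of the receptor CXCR2 the adjusted p was under 0.05 but above 0.01. CXCL1, which shares that receptor, was at 0.477 and 0.660 CPM in Control shRNA and at 1.05 and 0.978 CPM in shEZH2, a change of 0.82 ± 0.46 (SE, edgeR adjusted p = 0.153). CXCL8, the ligand of CXCR1 and CXCR2, was at 4.08 and 9.11 CPM in Control shRNA and at 8.13 and 10.4 CPM in shEZH2, with overlapping groups, a change of 0.50 ± 0.33 (SE, edgeR adjusted p = 0.216). This last value was 0.02 without Control shRNA replicate 1 and 1.19 without Control shRNA replicate 2.

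CCL5, which attracts T cells and monocytes, was the only gene of the 8 with a negative change in shEZH2. It had 10 and 12 counts in Control shRNA and 2 and 4 counts in shEZH2, or 0.529 and 0.720 CPM against 0.151 and 0.230 CPM, and the groups did not overlap. The change of -1.65 ± 0.61 (SE) did not reach the call (edgeR adjusted p = 0.0389). IL1A, the interleukin-1 that is active in its precursor form, had 3 and 9 counts in Control shRNA and 10 and 14 in shEZH2, a change of 1.17 ± 0.60 (SE, edgeR adjusted p = 0.121). Its value was 0.51 without Control shRNA replicate 1 and 2.24 without Control shRNA replicate 2. CCL20 had 1 and 1 counts in Control shRNA and 0 and 0 in shEZH2, and CCL2 had 0 in all of these libraries, so that no difference was detectable at this depth.

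**Figure D3:**
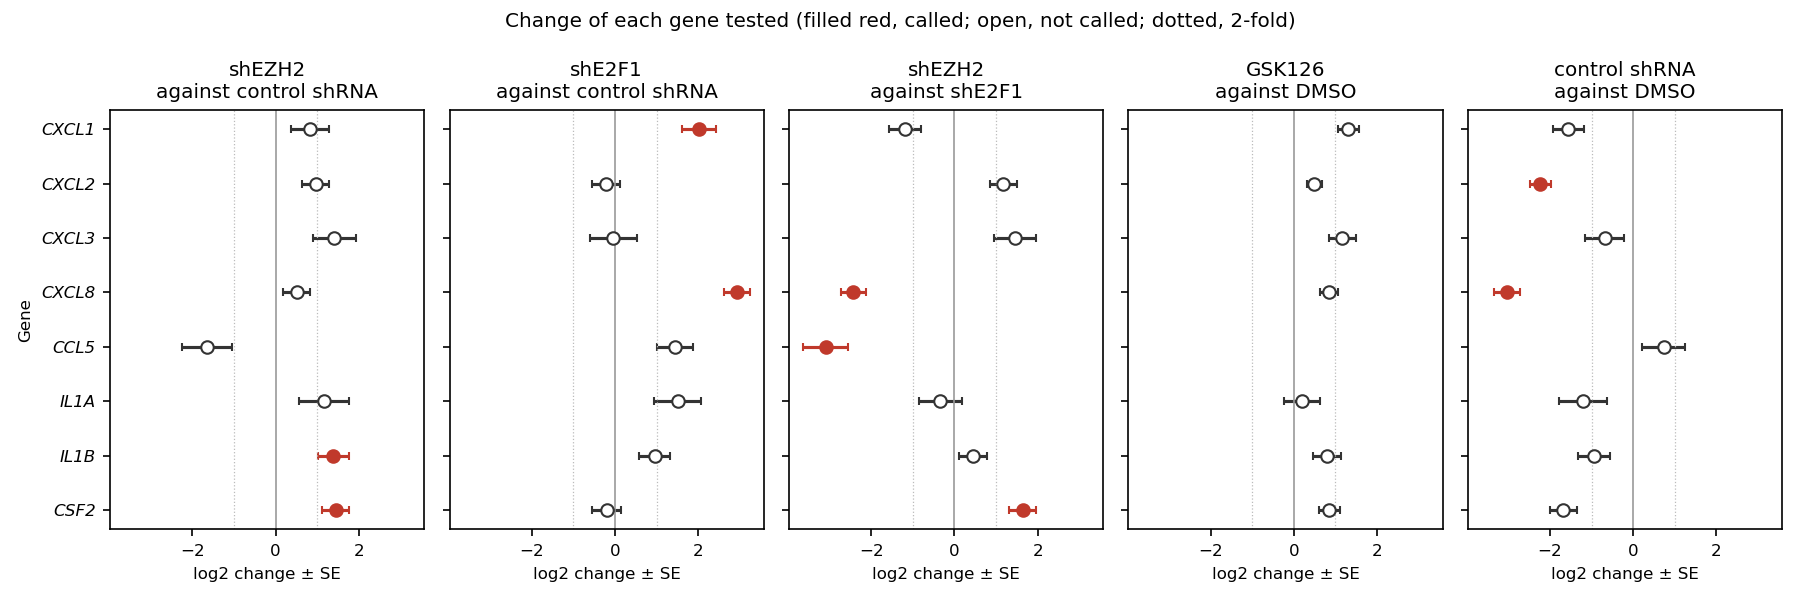
Log2 change with its standard error (horizontal axis) of the genes that passed the filter (vertical axis) in 5 comparisons, each panel naming the group on the positive side first. Filled red points are called at an adjusted p under 0.01 and more than 2-fold, namely IL1B and CSF2 in shEZH2, CXCL1 and CXCL8 in shE2F1, CXCL8, CCL5 and CSF2 between the hairpins, and CXCL2 and CXCL8 between Control shRNA and DMSO.

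The second comparison asked the same of E2F1 depletion, with the same control libraries. CXCL8 and CXCL1 rose in shE2F1, by 7.63-fold and 4.04-fold. They were 2 of the 8 genes tested, both higher, against 11.6% of all genes tested. The median change of the 8 genes was 1.20, against 0.00 over all genes, and 5 of the 8 were positive, against 50% of all genes.

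CXCL8 was at 40.0 and 60.3 CPM in shE2F1, against 4.08 and 9.11 CPM in Control shRNA. Even the lower shE2F1 library stood well above the higher control, and the change was 2.93 ± 0.30 (SE, edgeR adjusted p = 3.09e-05), or 3.61 without Control shRNA replicate 2. CXCL1 was at 2.78 and 1.83 CPM in shE2F1, against 0.477 and 0.660 CPM, a change of 2.01 ± 0.41 (SE, edgeR adjusted p = 0.00261). Its call was lost without Control shRNA replicate 1 (1.79, edgeR adjusted p = 0.0226) or without shE2F1 replicate 1 (1.67, adjusted p = 0.0466).

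The other 2 genes of the cluster stayed near the control level. CXCL2 was at 1.44 and 1.29 CPM in shE2F1, a change of -0.21 ± 0.35 (SE, edgeR adjusted p = 0.647). CXCL3 was at 0.814 and 0.323 CPM in shE2F1, on either side of both controls, a change of -0.04 ± 0.56 (SE, edgeR adjusted p = 0.965). CXCL3 rests on 17 and 6 counts in shE2F1, and its sign turned when 1 library was left out (0.09 without Control shRNA replicate 1 and 0.45 without shE2F1 replicate 2).

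CCL5 was at 1.96 and 1.46 CPM in shE2F1, or 41 and 27 counts, above the 10 and 12 counts of Control shRNA. The change of 1.45 ± 0.43 (SE) was not called, with an edgeR adjusted p of 0.0183, and it passed the same thresholds when no filter on low counts was used (1.47, adjusted p = 0.00868). CCL20 had 4 and 4 counts in shE2F1 and was not tested. Among the cytokines, IL1A was at 1.10 and 0.862 CPM in shE2F1 against 0.159 and 0.540 CPM, a change of 1.50 ± 0.57 (SE, edgeR adjusted p = 0.0507). This value was 0.85 without Control shRNA replicate 1 and 2.58 without Control shRNA replicate 2. IL1B was at 2.25 and 3.07 CPM in shE2F1, above both controls, a change of 0.95 ± 0.36 (SE, edgeR adjusted p = 0.0545). CSF2, called in shEZH2, was at 2.87 and 1.94 CPM in shE2F1, within the range of the controls, a change of -0.19 ± 0.35 (SE, edgeR adjusted p = 0.683).

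The hairpins were then compared directly, as a contrast in the fit of the 6 hairpin libraries. CXCL8 and CCL5 were lower in shEZH2 than in shE2F1, by 5.38-fold and 8.55-fold, and CSF2 was higher, by 3.11-fold. These were 3 of the 8 genes tested, against 23.3% of all genes tested. This count holds under a condition, since CCL5 passed the filter through the shE2F1 libraries where it was high. The change of CXCL8 was -2.43 ± 0.29 (SE, edgeR adjusted p = 4.22e-05), with 8.13 and 10.4 CPM against 40.0 and 60.3 CPM. For CCL5 the change was -3.10 ± 0.53 (SE, edgeR adjusted p = 0.000507), with 2 and 4 counts against 41 and 27. That of CSF2 was 1.64 ± 0.33 (SE, edgeR adjusted p = 0.00137), and this call was lost without shE2F1 replicate 2 (1.39, edgeR adjusted p = 0.0192).

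CXCL2 (1.18 ± 0.33, SE, edgeR adjusted p = 0.0101) and CXCL1 (-1.19 ± 0.39, SE, edgeR adjusted p = 0.0217) were not called. Both were called when all 10 libraries were fitted together (edgeR adjusted p = 0.00265 and 0.00959), but DESeq2 gave an adjusted p of 0.0368 for CXCL2 and 0.11 for CXCL1, and with 1 library left out the edgeR adjusted p reached 0.0681 and 0.216. CXCL3 was also not called, at 1.45 ± 0.50 (SE, edgeR adjusted p = 0.0285), and its value was 2.27 without shE2F1 replicate 1 and 0.96 without shE2F1 replicate 2. IL1A differed by -0.34 ± 0.51 (SE, edgeR adjusted p = 0.589) and IL1B by 0.44 ± 0.34 (SE, edgeR adjusted p = 0.278), which does not show that the hairpins acted alike on them.

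The summed level of 10 leukocyte markers also moved between the hairpins, at 32.0 and 34.9 CPM in shEZH2, 88.9 and 89.6 CPM in Control shRNA and 139.9 CPM in both shE2F1 libraries, the same order as CCL5. Of the 10 markers, 3 reached 1 CPM in any library, and CD68, which many cells carry in lysosomes, made up most of the sum, at 28.5 to 138 CPM. The defining marker CD3E was at 0 in all 10 libraries, and PTPRC did not exceed 0.644 CPM. The 4 endothelial markers summed to 6.36 to 6.51 CPM in Control shRNA, at least 10.8 CPM in both shEZH2 libraries, 9.54 to 14.1 CPM in shE2F1, 4.56 to 4.80 CPM in DMSO and 5.48 to 6.21 CPM in GSK126. KDR, at 3.56 to 12.3 CPM, was their main part and CDH5 had no more than 1 count. The part of either marker list in the results was not tested.

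Inhibition of EZH2 with GSK126 was compared with DMSO to see whether the genes also differed when the enzyme was present but blocked. None of the 7 genes tested was called by edgeR, nor was any of the 14632 genes tested (0%), and DESeq2 called 0 of the 7 genes and 11 of all genes. All 7 genes nevertheless had a positive change, between 0.20 and 1.31, with a median of 0.86 against -0.01 over all genes, of which 48.4% were positive. At an unadjusted p under 0.05, 6 of the 7 were higher, against 3.12% of all genes, and in 6 of the 7 both GSK126 libraries lay above both DMSO libraries, against 15.2% of all genes. Within each replicate number, all 7 were higher with GSK126, against 31.2% of all genes. Members of such a set are not independent replicates, and these counts are given without a test.

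CXCL1 was the furthest from the DMSO level, at 1.65 and 1.69 CPM in DMSO against 4.16 and 4.18 CPM with the inhibitor. The ratio was 2.51 in replicate 1 and 2.47 in replicate 2, and the change was 1.31 ± 0.25 (SE, edgeR unadjusted p = 0.00145, adjusted p = 0.749). CXCL3 was at 1.00 and 0.904 CPM in DMSO and at 1.99 and 2.30 CPM in GSK126, a change of 1.16 ± 0.32 (SE, edgeR unadjusted p = 0.0106). In both genes the groups were well apart, although CXCL3 had at most 39.1 counts.

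CXCL8 was at 60.7 and 46.0 CPM in DMSO and at 113 and 80.4 CPM in GSK126, with ratios of 1.86 and 1.75 within the replicates. The change was 0.86 ± 0.21 (SE, edgeR adjusted p = 0.976), and replicate 1 stood above replicate 2 in both groups. The change of CXCL8 was 1.09 without DMSO replicate 1 and 1.09 without GSK126 replicate 2. It was 0.66 without DMSO replicate 2 and 0.59 without GSK126 replicate 1. CSF2 was at 7.01 and 10.7 CPM in DMSO and at 13.1 and 18.9 CPM in GSK126, with ratios of 1.86 and 1.77, and here replicate 2 stood above replicate 1 in both groups. The change of CSF2 was 0.86 ± 0.26 (SE), or 1.17 without DMSO replicate 2 and 1.10 without GSK126 replicate 1. It was 0.59 without DMSO replicate 1 and 0.57 without GSK126 replicate 2.

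CXCL2 was at 6.46 and 8.41 CPM in DMSO and at 10.0 and 10.9 CPM in GSK126, a change of 0.49 ± 0.19 (SE). For IL1B the levels were 2.20 and 3.05 CPM in DMSO against 3.40 and 5.71 CPM in GSK126, a change of 0.80 ± 0.33 (SE). These 2 genes did not overlap between the groups, while IL1A did, at 0.952 and 0.621 CPM in DMSO against 1.05 and 0.766 CPM in GSK126, a change of 0.20 ± 0.44 (SE). For CXCL2, CXCL3, IL1A, IL1B and CSF2 the edgeR adjusted p was 1.00. CCL5 had 8 and 6 counts in DMSO and 7 and 10 in GSK126, CCL20 had 9 and 3 against 9 and 5, and CCL2 had 1 and 1 against 1 and 0, all too few to test.

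**Figure D4:**
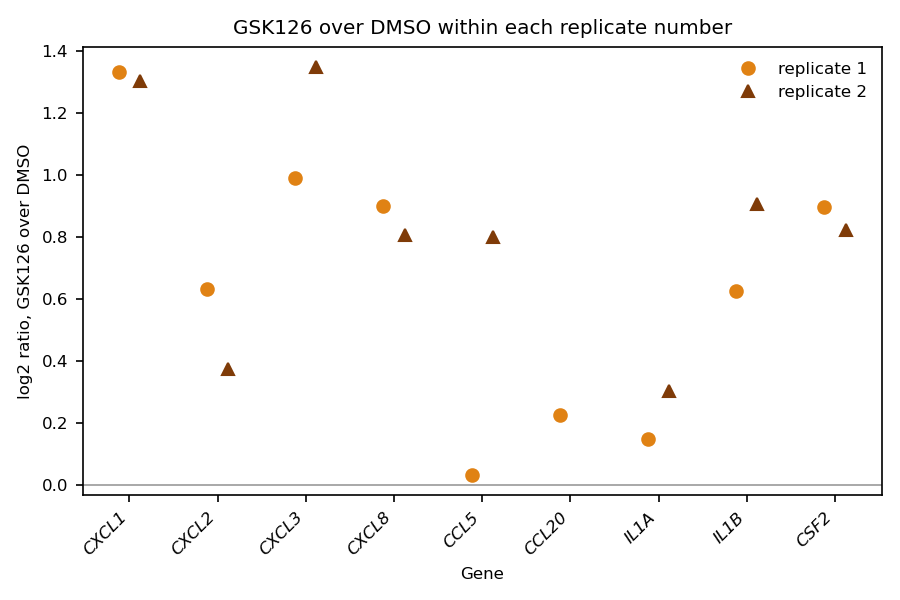
Log2 ratio of TMM-scaled CPM, GSK126 over DMSO, within replicate 1 (circles) and replicate 2 (triangles) for each gene with more than 3 counts in both libraries of a pair. All points lie above 0, with CXCL1 at 1.33 in replicate 1 and IL1A at 0.15.

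The effect of depletion was set against that of inhibition in 1 fit of all 10 libraries, as the shEZH2 change minus the GSK126 change. None of the 8 genes tested was called by edgeR or DESeq2, against 13.8% of all genes by edgeR, and 1 of the 8 had an unadjusted p under 0.05. That gene was CCL5, at -2.06 ± 0.80 (SE, edgeR adjusted p = 0.0608). For CSF2 and IL1B, which rose in shEZH2, the difference was 0.60 ± 0.44 and 0.61 ± 0.51 (SE), and for CXCL1 it was -0.48 ± 0.52 (SE). The standard errors of the 8 differences ran from 0.34 to 0.80, so that these values do not show that depletion and inhibition acted alike. The value for CSF2 was 1.21 without Control shRNA replicate 1 and 0.19 without Control shRNA replicate 2.

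Control shRNA and DMSO, the reference groups of the 2 experiments, did not start from the same level. CXCL8 and CXCL2 were lower in Control shRNA, by 8.18-fold and 4.69-fold, 2 of 8 genes tested against 0.9% of all genes tested. CXCL8 was at 4.08 and 9.11 CPM against 60.7 and 46.0 CPM, a change of -3.03 ± 0.32 (SE, edgeR adjusted p = 0.000288), and -3.70 without Control shRNA replicate 2. CXCL2 was at 1.48 and 1.68 CPM against 6.46 and 8.41 CPM, a change of -2.23 ± 0.25 (SE, edgeR adjusted p = 0.000466), and this call was lost without Control shRNA replicate 2 (-2.31, adjusted p = 0.0116).

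Of the other genes, CSF2 (-1.68 ± 0.33, SE, edgeR adjusted p = 0.011) and CXCL1 (-1.56 ± 0.37, SE, edgeR adjusted p = 0.0265) were not called, and CCL5 was the only 1 of the 8 with a positive value, 0.73 ± 0.51 (SE). The value for CSF2 was -2.29 without Control shRNA replicate 1, where it was called (edgeR adjusted p = 0.00997), and -1.95 without DMSO replicate 1, where it was also called (adjusted p = 0.0099). Virus, puromycin, solvent and the experiment itself cannot be told apart here. CXCL8 in shE2F1, at 40.0 and 60.3 CPM, overlapped the range of DMSO, whereas CXCL2 in shE2F1 did not reach it.

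Across the 10 libraries, pairs of the genes differed in how alike their patterns were. On log2 CPM, Pearson's r was 0.92 between CXCL1 and CXCL8 and 0.92 between CXCL2 and CSF2, and 0.87 between CXCL3 and CSF2, but 0.22 between CXCL3 and CXCL8. CCL5 ran against CSF2, at -0.61. These values are descriptions over 5 groups of 2 libraries, which share their experiment, and carry no test. Among 10821 other genes with a mean of at least 5 CPM, the pattern most like that of CXCL8 was found in RCAN1 (0.94), JAG1 (0.93) and NLRP1 (0.92), and the pattern most like that of IL1B in DUSP1 (0.90), SETD4 (0.88) and FN1 (0.88).

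Further genes of the pathway were counted by list. Of 27 other chemokine genes, 6 passed the filter among the hairpins, some of them, such as CXCL11, CCL3 and CCL26, through the shE2F1 libraries where they were high. With that condition on the count, 4 rose in shE2F1 (66.7% called, against 11.6% of all genes). CCL26 rose by 3.76 ± 0.36 and CXCL11 by 3.75 ± 0.80 (SE), the latter on at most 26 counts. CCL3 also rose, by 3.92 ± 0.54 (SE), although its reads can be shared with near-identical copies. In shEZH2, 1 of the 6 rose (16.7%, against 18.2% of all genes), namely CXCL16, by 2.00 ± 0.33 (SE). Of 12 tested genes in the list of other inflammatory cytokines, 5 rose and 1 fell in shE2F1, with IL18 up by 2.49 ± 0.13 and IL1RN, the interleukin-1 receptor antagonist, by 5.89 ± 0.56 (SE). This was 50% against 11.6% of all genes, but members such as IL1RN and IL37 passed the filter through shE2F1. IL1RN was at 0.053 and 0.060 CPM in Control shRNA, 0.452 and 0.691 CPM in shEZH2 and 4.26 and 3.29 CPM in shE2F1. In shEZH2, 2 of the 12 rose (16.7%, against 18.2% of all genes), IL1RN by 3.21 ± 0.73 and IL24 by 1.42 ± 0.20 (SE).

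On the receiving side, 3 of 8 tested receptor genes rose in shEZH2 and 1 fell (50% called, against 18.2% of all genes). CCR3, 1 of the 3, rose by 3.29 ± 0.51 (SE) but passed the filter through the shEZH2 libraries where it was high. IL1R1, the signalling receptor of IL1A and IL1B, rose by 2.43 ± 0.20 (SE), and SIGIRR, a negative regulator of that receptor family, fell by 3.03 on the log2 scale. In shE2F1, 1 receptor gene rose and 1, CCR1, fell by 3.79 (25% called, against 11.6%). CCR1 had at most 32 counts in any library and passed the filter through Control shRNA and shEZH2, where it was higher. Of 9 tested genes for maturation and release of interleukin-1, CASP4 rose in both hairpin groups, by 1.82 ± 0.16 in shEZH2 and 2.07 ± 0.16 in shE2F1 (SE), while in shEZH2 PYCARD fell by 2.05 and GSDMD fell by 1.81. CASP1, the gene of caspase-1, did not exceed 0.376 CPM or 5.2 counts in any library and was not tested. The list had 2 called higher and 2 lower in shEZH2 (44.4%, against 18.2% of all genes) and 1 each way in shE2F1 (22.2%, against 11.6%).

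Of the 24 NF-kB and partner factors, all tested, 5 rose and 2 fell in shEZH2 (29.2% called, against 18.2%) and 6 rose and 2 fell in shE2F1 (33.3%, against 11.6%). TNFAIP3, an NF-kB target that restrains the pathway, rose in both, by 1.78 ± 0.17 and 1.37 ± 0.17 (SE), as did ATF3, by 3.06 ± 0.16 and 2.01 ± 0.16 (SE). BCL3, 1 of the 2 that fell in shEZH2, changed by -2.10 ± 0.29 (SE). Of the 15 regulators of AU-rich messenger decay, 1 rose and 2 fell in shEZH2 (20%, near the 18.2% of all genes). DCP2 rose by 1.48 ± 0.17 (SE). The 2 lower genes were ELAVL1, which stabilises such messengers and fell by 1.16, and ZFP36L2, which promotes their decay and fell by 1.11. In shE2F1 only PABPC1 of the 15 was called (6.67%, against 11.6%), and it fell by 1.14. GSK126 called 0 genes in each of the 6 lists. Between Control shRNA and DMSO, 6 of the 24 NF-kB and partner factors were lower (25%, against 0.9% of all genes). Among them, FOSB was at -3.40 and FOS at -3.38 on the log2 scale. Of 12 tested genes in the list of other inflammatory cytokines, 2 were lower (16.7%), IL6 at -3.39 and CSF1 at -1.29.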

How the data were processed

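Poly(A)-selected MDA-MB-231 RNA went into a directional library kit, per the labels. The 18 sample records contain 8 exact repeats, and the 10 distinct libraries entered once each. The authors aligned reads with STAR (2.7.2b in the submitters' processing notes) to hg38 with Ensembl annotation release 108 and quantified genes with RSEM (1.3.1). The deposited values used here were expected counts per gene, where RSEM splits multi-mapping reads between genes, TPM, which the authors' run of RSEM scaled for gene length and library, and the posterior SD of the count. Whether counting used the strand is not given in the sources used here, so that reads of overlapping antisense genes may have been included.

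The 10 genes and the 6 lists of related genes were chosen with earlier results of these data known. Ensembl identifiers were named through GENCODE release 44, in which 62625 of 62703 (99.9%) were found. Promoter windows came from RefSeq and were compared after global alignment.

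Rounded expected counts were tested with edgeR 4.0.16 (R 4.3.3): filterByExpr, TMM scaling and quasi-likelihood F-tests, with p-values adjusted by Benjamini-Hochberg across all tested genes. The 6 hairpin libraries were fitted together, the 4 drug libraries apart, and the 2 comparisons across experiments in all 10, with no covariate, and the biological coefficient of variation was 0.0948, 0.126 and 0.110. Genes were called at the study's thresholds (adjusted p under 0.01, over 2-fold). Standard errors were derived from the change and its F statistic. Named genes were the 10 genes, EZH2, E2F1, up to 3 called genes per list and comparison with the largest change, and the 3 most similar in pattern to CXCL8 and to IL1B. Alternatives were DESeq2 1.42.0, its size factors, no filter, a mean of at least 50 counts, a correction for GC content and length (splines, 5 degrees of freedom), other sets of libraries, a replicate block, an adjusted p under 0.05 with no fold requirement, TPM, and leaving out each library. The pipeline was tested on simulated data.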

Additional observations from a re-analysis of the deposited data

Results flagged for a closer look

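The difference between the 2 hairpins, tested directly in the 6 hairpin libraries, was called for 3 of the 8 genes tested, against 23.3% of all genes tested. CXCL8 differed by -2.43 (shEZH2 against shE2F1, log2), with 8.13 and 10.4 CPM in shEZH2 and 40.0 and 60.3 CPM in shE2F1. CCL5 differed by -3.10, with a level under that of Control shRNA in both shEZH2 libraries and over it in both shE2F1 libraries. It had 2 and 4 counts in shEZH2 and passed the filter through the shE2F1 libraries where it was high. CSF2 differed by 1.64, or by 1.39 without shE2F1 replicate 2, where it was no longer called. Its shEZH2 libraries lay above and its shE2F1 libraries within the range of Control shRNA. Each is listed because the contrast between the groups itself passed the threshold.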

How the results depend on the processing

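Over 6 comparisons, direction and call of single genes were as reported in 569 recomputations. Of the others, 30 passed the threshold of their setting anew, 11 no longer passed it, 9 turned in sign and 2 moved without a test. Some of the 30 kept the reported values and passed only because their setting was an adjusted p under 0.05 with no fold requirement. For counts of genes called, the reported count is given in brackets. An adjusted p under 0.05 with no fold requirement gave 5 in shEZH2 (2), beside 8550 of all 15373 genes tested. It gave 6 between the hairpins (3), beside 9267 of 15373, and 4 between Control shRNA and DMSO (2), beside 1135 of 15773. No filter gave 5 and 4 in the last 2 comparisons, beside 4053 of 27986 and 390 of 29478. DESeq2 gave 1 in shEZH2, beside 2502 of 15373, as did the 4 libraries alone, beside 2594 of 14591. A mean of at least 50 counts gave 1 in shEZH2, beside 2247 of 11849, and 1 in shE2F1, beside 1358 of 11849. Fewer of the 10 genes were tested there. All 10 libraries gave 5 between the hairpins, beside 3586 of 15773. Leaving out each library in turn gave 0 to 1 in shEZH2, 1 to 2 in shE2F1, 2 to 3 between the hairpins, 1 in GSK126 each time and 1 to 3 between Control shRNA and DMSO. Signs turned for CXCL3 in shE2F1 (-0.86 to 0.45 with a library left out, and 0.060 with TPM, chosen after seeing the data), CSF2 in shE2F1 (-0.60 to 0.42) and IL1A under GSK126 (-0.072 to 0.56). They also turned for CXCL3 (-0.072 to 0.56) and CXCL8 (-0.83 to 0.33) in the difference between depletion and inhibition. The lone library left in a group was assumed to vary like the others. The cause of these changes was not tested, and of the genes tested CXCL1, CXCL3, CCL5 and IL1A had the fewest counts in total.

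With the replicate block, 1 gene, CXCL1, was called under GSK126 (1.31, edgeR adjusted p = 0.000376), also with GC and length correction (1 gene), and 68 of all genes were called against 0. CXCL8 (adjusted p = 1.89e-15) and CSF2 (adjusted p = 1.22e-06) then passed the p threshold but not 2-fold. The block changed no other call of the 10 genes in the 5 comparisons where it was fitted, and was not fitted for Control shRNA against DMSO. Replicate deviations correlated at 0.66 between DMSO and GSK126, from 2 pairs only, and between 0.04 and 0.20 among the hairpin groups. No label says that a number marks a shared batch.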
